A study of Homo sapiens with 8 samples.

Results

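Eph receptors are the largest family of receptor tyrosine kinases, and their ligands, the ephrins, are anchored to the surface of neighbouring cells. The members described here were EPHA1, EPHA2, EPHA4, EPHB2, EPHB3, EPHB4, EFNA1, EFNA3, EFNB1 and EFNB2, listed by gene symbol, with every probe set that the array annotation assigns to exactly one of these symbols. That rule gave 9 of the 10 genes, with 18 probe sets, out of 19775 genes with a probe set. EPHB2 is not analysed here. Of the 9 genes, 7 had a probe set bright enough to be tested, and EFNA3 and EFNB1 did not.

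Ephrin-A ligands are held in the membrane by a lipid anchor, whereas ephrin-B ligands span it. Binding between neighbouring cells sends a forward signal into the cell with the receptor and a reverse signal into the cell with the ephrin, which changes the cytoskeleton and cell contacts. In the intestinal crypt, EphB receptors are Wnt/beta-catenin target genes and, with their ephrin-B ligands, they keep cells in position along the crypt axis. EFNA1 is known as a gene induced by tumour necrosis factor and by low oxygen in several cell types, and EPHA2 as a gene induced through the Ras and ERK pathway.

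Transcripts were measured on Affymetrix 3' expression arrays in a pair of colon cancer cell lines. DKS-5 is labelled K-ras mutant and DKO-3 is labelled K-ras knockout (wild-type). Both lines are known as clonal derivatives of the colorectal line DLD-1, so that a difference between them can also be a difference between clones, and K-ras expression is not analysed here. The 4 groups were DKS-5 at 21% O2 (normoxia), DKS-5 after 12 h at 1% O2 (hypoxia), and DKO-3 under the same conditions, with 2 arrays each. The labels do not tell if a group's 2 samples were separate cultures, and p-values then reflect only the spread between those samples, which may be technical. Levels are MAS5 signals, in arbitrary intensity units, scaled to a common trimmed mean on each array, and differences are on the log2(signal + 16) scale, ± SE, from limma with Benjamini-Hochberg adjustment over 12735 genes. A gene was called where its adjusted p was below 0.05. Folds were computed from the log2 differences, so they compare signal + 16 and not the signals printed. They are smaller than the ratio of the signals, most so for dim genes.

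The promoters of EFNA1 and EPHA4 are shown because the results turn on these members. They are the RefSeq sequences of GRCh38.p14 from 250 bases before to 50 bases after the transcript start, 5′ to 3′ on the gene's strand. Capitals mark matches, on either strand, to the core of the hypoxia response element, searched as ACGTG or GCGTG. EFNA1 lies on the plus strand (chr1:155127626-155127925), and EPHA4, on the minus strand, has an upstream promoter (chr2:221574153-221574452) and a downstream one (chr2:221572255-221572554).
EFNA1: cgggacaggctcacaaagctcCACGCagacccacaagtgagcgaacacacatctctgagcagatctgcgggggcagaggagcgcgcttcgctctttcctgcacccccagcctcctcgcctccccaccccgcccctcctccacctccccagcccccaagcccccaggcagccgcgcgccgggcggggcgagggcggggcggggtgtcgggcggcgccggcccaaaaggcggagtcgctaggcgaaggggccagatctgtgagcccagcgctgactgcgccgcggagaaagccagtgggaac
EPHA4, upstream: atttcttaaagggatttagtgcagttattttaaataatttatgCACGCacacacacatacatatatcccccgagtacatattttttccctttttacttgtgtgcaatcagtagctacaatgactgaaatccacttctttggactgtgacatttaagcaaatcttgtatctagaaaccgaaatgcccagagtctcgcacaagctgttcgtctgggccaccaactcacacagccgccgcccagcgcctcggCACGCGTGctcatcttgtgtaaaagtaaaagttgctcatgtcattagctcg
EPHA4, downstream: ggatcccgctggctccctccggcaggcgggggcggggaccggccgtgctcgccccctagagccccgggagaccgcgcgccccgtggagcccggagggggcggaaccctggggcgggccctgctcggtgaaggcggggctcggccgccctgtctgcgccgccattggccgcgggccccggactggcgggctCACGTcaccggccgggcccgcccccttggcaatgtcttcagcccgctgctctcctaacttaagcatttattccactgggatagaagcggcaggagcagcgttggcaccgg

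The EFNA1 promoter held 1 match, 229 bases before the start. The upstream EPHA4 promoter held 3 matches, of which a pair overlaps at the start site, and the downstream one held 1. Such a core stood in 48.4% of all 34796 RefSeq promoters of this length and in 11 of the 12 promoters listed for the members. EPHB2 is listed at neighbouring starts with nearly the same sequence, so the 12 are not all distinct. By gene, 9 of the 10 members held a core, and EPHA1 was the member with none. G and C made up 43% to 83% of the bases in the members' promoters. The shares were not compared at like G and C content, so no excess is read from them. The E-box CACGTG, which contains the core ACGTG, and the AP-1 motif, searched as TGACTCA or TGAGTCA on both strands, stood in 0 of the members' promoters, against 7.20% and 4.96% of all promoters. These are matches of letters and not measured binding.

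Hypoxia did not move any of the 7 tested members past the threshold, and EFNA1 came closest. EFNA1 encodes ephrin-A1, a ligand of EPHA2 and other EphA receptors. In DKS-5 its signal was 75.5 and 122 at normoxia and 151 and 179 after hypoxia. In DKO-3 it was 80.6 and 99.3 at normoxia and 245 and 161 after hypoxia. Every hypoxia array lay above every normoxia array, in 4 against 4. Averaged over both lines the difference was 0.85 ± 0.20, a 1.81-fold higher value in hypoxia, with a limma adjusted p = 0.0506. It was 0.68 ± 0.28 in DKS-5 (adjusted p = 0.632) and 1.03 ± 0.28 in DKO-3 (adjusted p = 0.206), and the lines' responses differed by -0.34 ± 0.40 (adjusted p = 0.9995). The averaged difference passed the threshold when DKS-5 hypoxia replicate 1 was left out (0.91, adjusted p = 0.0228) and when DKS-5 normoxia replicate 2 was left out (1.00, adjusted p = 0.0458), and over all 8 single omissions its adjusted p ran from 0.0228 to 0.306. With the ratio of 3' to 5' signal of ACTB, described with EPHA4, as a covariate it was 0.69 (adjusted p = 0.395). Between the lines EFNA1 differed by -0.08 ± 0.20 (adjusted p = 0.876), and the arrays of the lines overlapped.

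**Figure D1:**
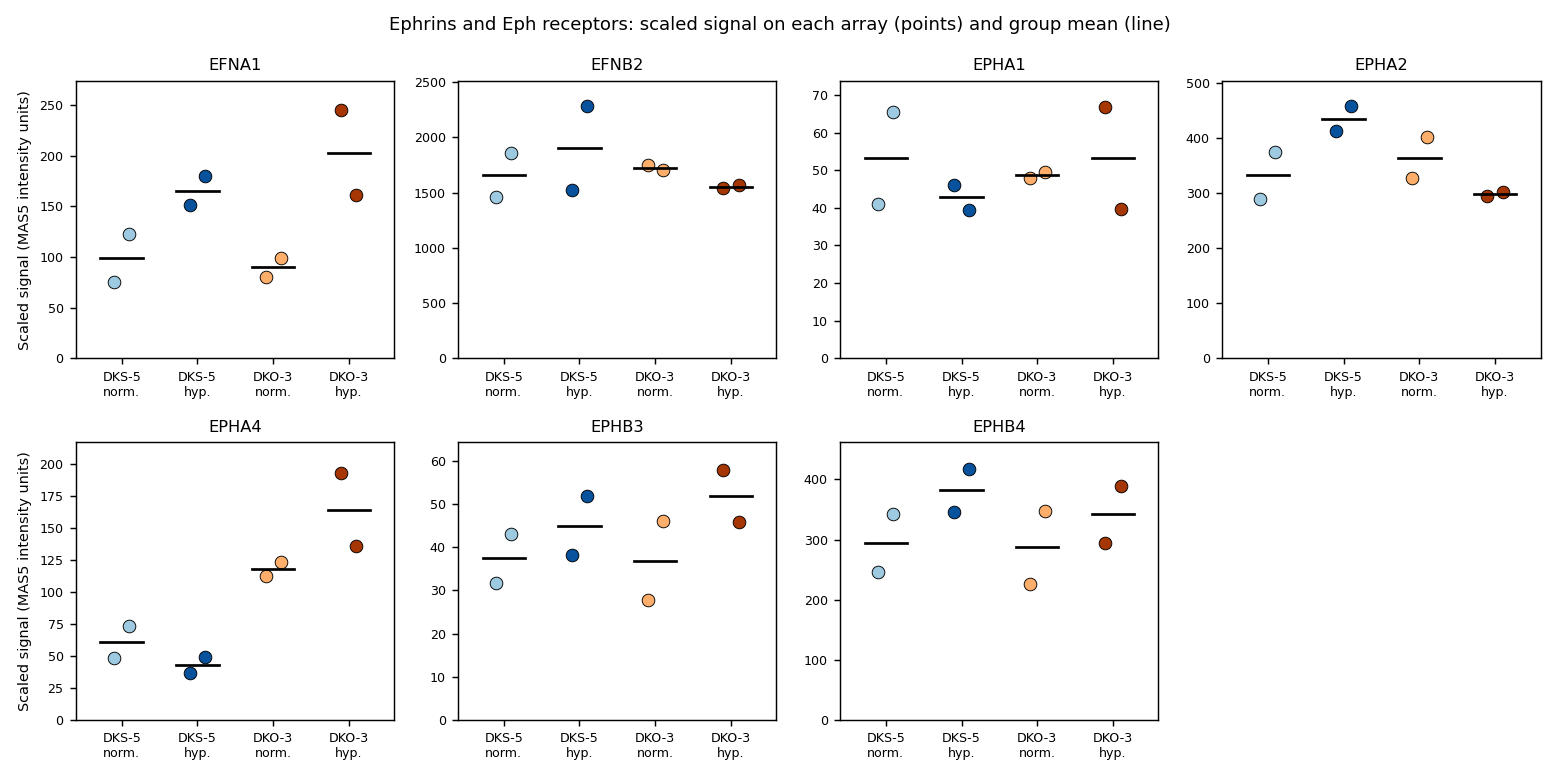
Scaled signal of the 7 tested members (vertical axes from 0, in MAS5 intensity units, a separate scale for each gene) on each of the 8 arrays (points), with the mean of each group of 2 (line), in DKS-5 and DKO-3 at normoxia (norm.) and hypoxia (hyp.). EFNA1 runs from 75.5 to 122 on the normoxia arrays and from 151 to 245 on the hypoxia arrays, and EPHA4 from 36.8 to 73.6 on the DKS-5 arrays and from 112 to 193 on the DKO-3 arrays.

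The other ligands gave no call. EFNB2, which encodes the transmembrane ligand ephrin-B2, had signals in DKS-5 of 1456 and 1858 at normoxia and 1527 and 2283 after hypoxia. In DKO-3 they were 1747 and 1703 at normoxia and 1544 and 1566 after hypoxia. The groups overlapped, apart from both DKO-3 hypoxia arrays lying below both DKO-3 normoxia arrays. EFNB2 differed by 0.02 ± 0.15 with hypoxia (adjusted p = 0.973) and by 0.10 ± 0.15 between the lines (adjusted p = 0.770), averaged in each case. Its probe sets disagreed in sign for DKS-5 against DKO-3 in hypoxia, at 0.26 ± 0.21 for the brighter and -0.68 ± 0.30 for the other (adjusted p = 0.555 and 0.254 over 25838 probe sets). EFNA3, another ephrin-A ligand, had signals from 2.79 to 15.5, and EFNB1, which encodes ephrin-B1, from 1.39 to 13.7. Their means lay below the lower bound of about 13.8 for testing, so no order of the groups is read for them.

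EPHA4 was the 1 member called between the lines. It encodes a receptor that binds ligands of both ephrin classes. In DKS-5 its signal was 48.4 and 73.6 at normoxia and 36.8 and 48.8 after hypoxia. In DKO-3 it was 112 and 123 at normoxia and 193 and 135 after hypoxia. All 4 DKS-5 arrays lay below all 4 DKO-3 arrays. Averaged over both oxygen levels EPHA4 was 2.31-fold lower in DKS-5, a difference of -1.21 ± 0.19 (adjusted p = 0.000706). In hypoxia it was 3.04-fold lower, at -1.60 ± 0.27 (adjusted p = 0.00265). In normoxia the difference was -0.81 ± 0.27 (adjusted p = 0.167).

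Within a line, EPHA4 did not pass the threshold with hypoxia. The difference was -0.38 ± 0.27 in DKS-5 (adjusted p = 0.850), where the arrays overlapped, and 0.41 ± 0.27 in DKO-3 (adjusted p = 0.620), where both hypoxia arrays lay above both normoxia arrays. The line difference read larger in hypoxia with this brightest probe set, but the test of that change gave -0.79 ± 0.38 (adjusted p = 0.9995). With the other tested probe sets of EPHA4 that change was 0.09 ± 0.45, 0.42 ± 0.44 and -0.05 ± 0.35. Their hypoxia differences were 0.17, 0.23 and 0.26 in DKS-5, and 0.08, -0.19 and 0.31 in DKO-3. The probe sets thus disagreed in sign on both points.

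The lower EPHA4 signal in DKS-5 was seen with each probe set that could be tested. Of 5 probe sets, 4 passed the brightness filter, and all 4 were called lower in DKS-5 in the averaged comparison, by -1.21, -0.96, -0.80 and -0.61, with adjusted p from 0.000896 to 0.0438 over 25838 probe sets, of which 7.17% were called. In hypoxia the brightest was called (adjusted p = 0.00356), as were 3.16% of probe sets, and the other 3 stood between -0.91 and -0.59 (adjusted p from 0.151 to 0.343). In hypoxia averaged over both lines, 0.867% of probe sets were called and none of the members' 13, of which EFNA1's was nearest. Probe sets of one gene share the same RNA and are not replicates.

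**Figure D2:**
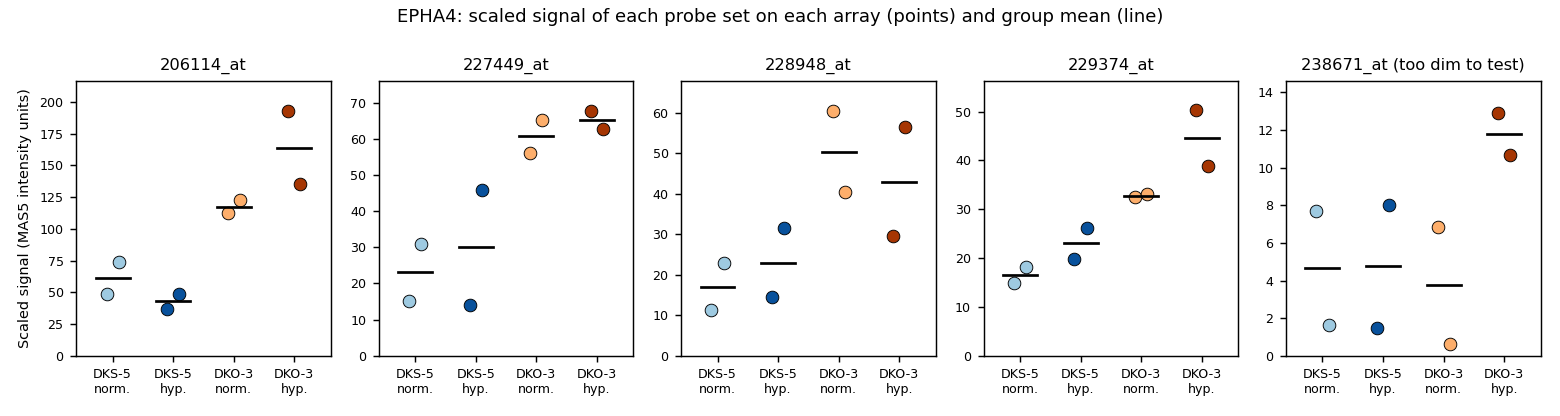
Scaled signal of the 5 probe sets of EPHA4 (vertical axes from 0, in MAS5 intensity units, a separate scale for each probe set) on each array (points), with the mean of each group of 2 (line), in DKS-5 and DKO-3 at normoxia (norm.) and hypoxia (hyp.). In the leftmost panel the DKS-5 arrays run from 36.8 to 73.6 and the DKO-3 arrays from 112 to 193, and the rightmost panel holds a probe set too dim to test, with values from 0.629 to 12.9.

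The ratio of 3' to 5' signal of the ACTB control probe sets, a sign of RNA quality, varied with line, oxygen level and replicate number. It was lowest in DKO-3 hypoxia and lower in replicate 2 of each group, and the arrays of the lines overlapped. In DKS-5 it was 55.1 and 34.3 at normoxia and 54.8 and 25.6 after hypoxia. In DKO-3 it was 49.0 and 14.9 at normoxia and 11.47 and 11.02 after hypoxia. With this ratio as a covariate, the EPHA4 difference was -0.99 averaged (adjusted p = 0.0614) and -1.29 in hypoxia (adjusted p = 0.145), so both calls were lost. The DKO-3 array with a ratio of 49.0, at normoxia, had an EPHA4 signal of 112. The DKS-5 arrays with ratios of 55.1 (normoxia) and 54.8 (hypoxia) had 48.4 and 36.8. That sets a single DKO-3 array beside them. The part of RNA quality in the EPHA4 difference was not tested beyond the covariate. The call in hypoxia was also lost with the mean of all probe sets in place of the brightest (-0.84, adjusted p = 0.0541) and without DKO-3 hypoxia replicate 1 (-1.37, adjusted p = 0.0746). The averaged call remained with each array left out, with adjusted p from 0.000810 to 0.00809.

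**Figure D3:**
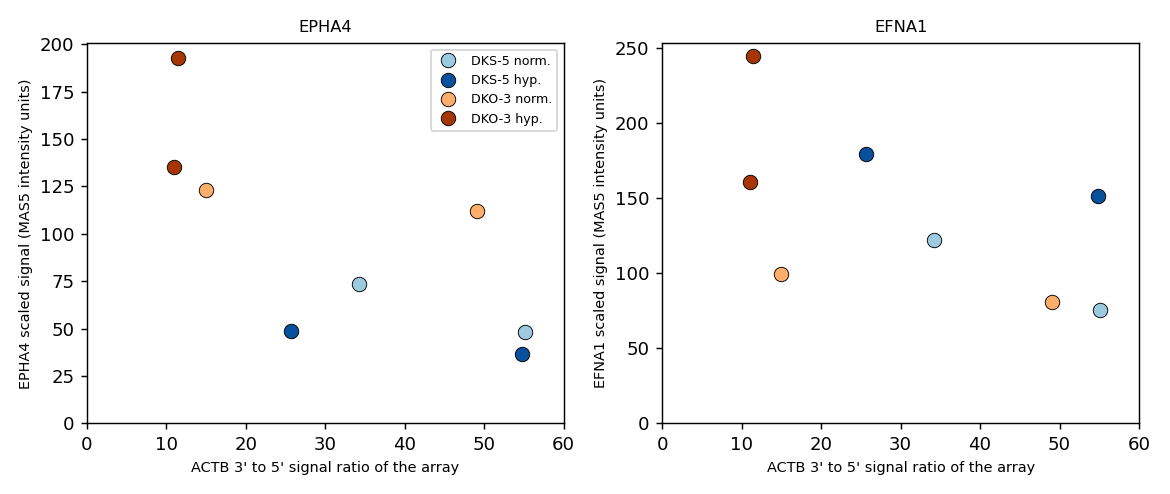
Scaled signal of EPHA4 (left) and EFNA1 (right) in MAS5 intensity units against the ratio of 3' to 5' signal of ACTB on the same array, 1 point for each of the 8 arrays, coloured by line and by normoxia (norm.) or hypoxia (hyp.). The DKO-3 normoxia point at a ratio of 49.0 has an EPHA4 signal of 112, and the DKS-5 points run from 36.8 to 73.6. Both DKO-3 hypoxia points lie at the lowest ratios, 11.47 and 11.02.

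The remaining EphA receptors gave no call. EPHA2, a receptor often raised in epithelial tumours, had signals in DKS-5 of 290 and 374 at normoxia and 412 and 457 after hypoxia. In DKO-3 they were 327 and 402 at normoxia and 295 and 301 after hypoxia. Both hypoxia arrays were above both normoxia arrays in DKS-5 and below them in DKO-3. The differences were 0.38 ± 0.23 in DKS-5 (adjusted p = 0.806) and -0.27 ± 0.23 in DKO-3 (adjusted p = 0.723). Between the lines EPHA2 differed by 0.52 ± 0.23 in hypoxia (adjusted p = 0.246) and by -0.13 ± 0.23 in normoxia (adjusted p = 0.932). EPHA1, the receptor after which the family was named, had signals in DKS-5 of 41.1 and 65.3 at normoxia and 46.1 and 39.4 after hypoxia. In DKO-3 they were 48.0 and 49.5 at normoxia and 66.9 and 39.8 after hypoxia. The groups overlapped, save that both DKS-5 hypoxia arrays lay below both DKO-3 normoxia arrays, and the averaged differences were -0.07 ± 0.19 with hypoxia (adjusted p = 0.901) and -0.07 ± 0.19 between the lines (adjusted p = 0.889).

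EPHB3 and EPHB4, the EphB receptors tested, gave no call, and their arrays overlapped between the lines. EPHB4, the main receptor of ephrin-B2, had signals in DKS-5 of 245 and 342 at normoxia and 346 and 418 after hypoxia. In DKO-3 they were 226 and 347 at normoxia and 295 and 389 after hypoxia. In each line the hypoxia mean was the higher, and the averaged difference was 0.32 ± 0.19 (95% confidence interval -0.09 to 0.72, adjusted p = 0.470). EPHB3, a Wnt target in crypt progenitors, had signals in DKS-5 of 31.8 and 43.0 at normoxia and 38.2 and 51.8 after hypoxia. In DKO-3 they were 27.7 and 46.1 at normoxia and 58.0 and 45.9 after hypoxia. Its averaged difference with hypoxia was 0.28 ± 0.19 (95% confidence interval -0.12 to 0.69, adjusted p = 0.517). Between the lines the averaged difference was 0.10 ± 0.19 for EPHB4 (95% confidence interval -0.30 to 0.51) and -0.07 ± 0.19 for EPHB3 (-0.47 to 0.34).

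**Figure D4:**
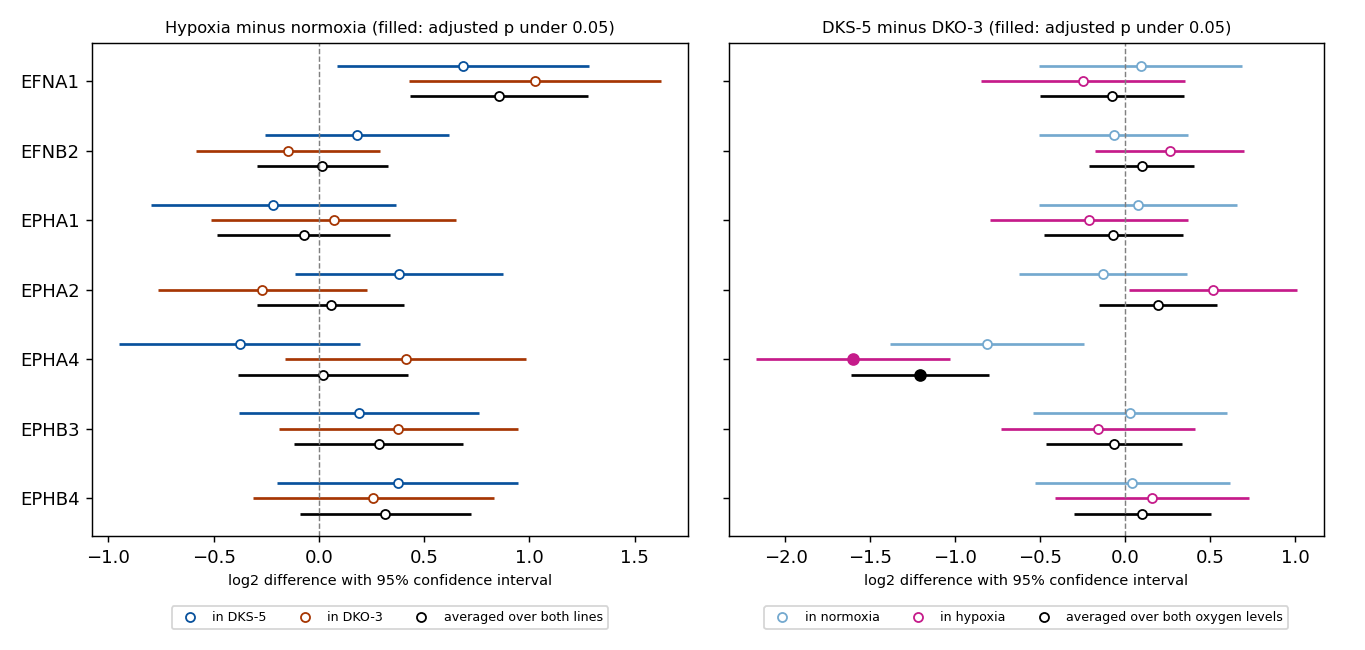
Log2 differences of the 7 tested members (points) with 95% confidence intervals (bars), for hypoxia minus normoxia (left) and DKS-5 minus DKO-3 (right), each within a line or oxygen level and averaged; filled points had an adjusted p below 0.05. The filled points are EPHA4 in hypoxia (-1.60) and averaged (-1.21), and the interval of EFNA1 with hypoxia averaged over both lines runs from 0.43 to 1.28.

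Across the members, 0 of 7 were called with hypoxia in DKS-5, in DKO-3 or averaged, where limma called 0.503%, 0.346% and 1.19% of all genes. At an unadjusted p under 0.05 the count was 1 of 7 in each, which was EFNA1, beside 882, 1341 and 1827 of all 12735 genes. Between the lines, 0 of 7 were called in normoxia, 1 lower in DKS-5 in hypoxia and 1 lower averaged, against 2.54%, 4.37% and 9.11% of all genes. At an unadjusted p under 0.05 limma gave 1 member in normoxia (EPHA4), 2 in hypoxia (EPHA4 and EPHA2) and 1 averaged (EPHA4), beside 1448, 2346 and 2867 of all genes. For the difference between the lines in the hypoxia response, 0% of genes and 0 of 7 members were called, while 0 members and 333 of all genes had an unadjusted p under 0.05. The members' median difference was 0.06 with hypoxia averaged, beside 0.03 for all genes tested, and -0.07 between the lines averaged, beside -0.01.

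Of the 12 other Eph and ephrin genes, 5 could be tested and 0 were called by limma in any comparison. EFNA4, an ephrin-A ligand gene near EFNA1 on the chromosome, with EFNA3 between them, had signals in DKS-5 of 83.2 and 101 at normoxia and 70.5 and 216 after hypoxia. In DKO-3 they were 84.7 and 91.1 at normoxia and 187 and 160 after hypoxia. DKS-5 hypoxia replicate 1 was the lowest of all 8 arrays, and the averaged difference with hypoxia was 0.63 ± 0.25 (adjusted p = 0.262). Without that array it was 0.99 (adjusted p = 0.00632), and without DKS-5 hypoxia replicate 2, the highest array, 0.27 (adjusted p = 0.614). EFNA5, an ephrin-A ligand known from axon guidance, differed by -0.48 ± 0.20 with hypoxia (adjusted p = 0.274), with all 4 hypoxia arrays below all 4 normoxia arrays. Its 4 probe sets ran from -0.48 to 0.26.

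Among 30 forward signalling partners of Eph receptors, 25 were tested, and between the lines averaged 0 were higher and 2 lower in DKS-5, a share near the 9.11% called over all genes. VAV2, an exchange factor that binds activated Eph receptors, had signals from 56.9 to 94.3 on the DKS-5 arrays and from 178 to 259 on the DKO-3 arrays. The arrays did not overlap, and VAV2 was 2.42-fold lower in DKS-5 (-1.27 ± 0.18, adjusted p = 0.000259), a call that remained under every setting tried. Of its 3 probe sets 1 passed the filter, and over the settings the averaged difference ran from -1.47 to -0.59. FYN, a Src-family kinase that acts next to Eph receptors, had signals from 227 to 303 on the DKS-5 arrays and from 321 to 483 on the DKO-3 arrays (-0.57 ± 0.16, adjusted p = 0.0364). FYN missed the threshold when any 1 array except DKS-5 hypoxia replicate 1 was left out, with adjusted p from 0.0526 to 0.154, and with 4 of the other settings tried (adjusted p from 0.0505 to 0.144). Its 5 probe sets ran from -0.86 to -0.16. VAV2 was also the 1 partner called within normoxia (-1.55 ± 0.25, adjusted p = 0.00279) and within hypoxia (-0.999 ± 0.255, adjusted p = 0.0380), where 2.54% and 4.37% of all genes were called. The call in normoxia was lost without DKO-3 normoxia replicate 1 (-1.36, adjusted p = 0.0533) or DKS-5 normoxia replicate 2 (-1.36, adjusted p = 0.0741), and with the mean of its probe sets (-0.72, adjusted p = 0.110). The call in hypoxia was lost without any 1 of the 4 hypoxia arrays or of the DKS-5 normoxia arrays (adjusted p from 0.0570 to 0.173), and with 5 of the other settings tried (adjusted p from 0.0653 to 0.267). None of the 25 was called with hypoxia, and the kinases, adaptors and GTPases of the list other than VAV2 and FYN were not called between the lines.

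Of 12 genes of ephrin reverse signalling and shedding, all were tested, and 1 was higher and 1 lower in DKS-5 in normoxia, in hypoxia and averaged. Over all genes 2.54%, 4.37% and 9.11% were called in these comparisons. RHBDL2, a rhomboid protease known to cleave B-type ephrins in the membrane, had signals from 22.7 to 35.0 on the DKS-5 arrays and from 157 to 192 on the DKO-3 arrays. It was 4.30-fold lower in DKS-5 (-2.10 ± 0.18, adjusted p = 1.62e-06), although its 3 probe sets ran from -2.59 to -0.09. DOCK4, a Rac activator that also acts downstream of EPHA2, had signals from 200 to 328 on the DKS-5 arrays and from 70.0 to 110 on the DKO-3 arrays. It was 2.61-fold higher in DKS-5 (1.38 ± 0.19, adjusted p = 0.000241), and its 3 probe sets past the filter ran from 0.44 to 1.38. RHBDL2 remained called in all 3 line comparisons, and DOCK4 in the averaged one, under every setting tried. Within normoxia DOCK4 (1.34, adjusted p = 0.0133) lost its call without any 1 of the 4 normoxia arrays (adjusted p from 0.0925 to 0.139), and with no filter on dim probe sets (adjusted p = 0.0689). Within hypoxia (1.43, adjusted p = 0.00756) it lost its call without DKO-3 hypoxia replicate 1 (1.19, adjusted p = 0.141) or DKS-5 hypoxia replicate 2 (1.09, adjusted p = 0.0521), and with the ACTB ratio as a covariate (1.69, adjusted p = 0.0694). None of the 12, the shedding proteases ADAM10 and ADAM17 included, was called with hypoxia.

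**Figure D5:**
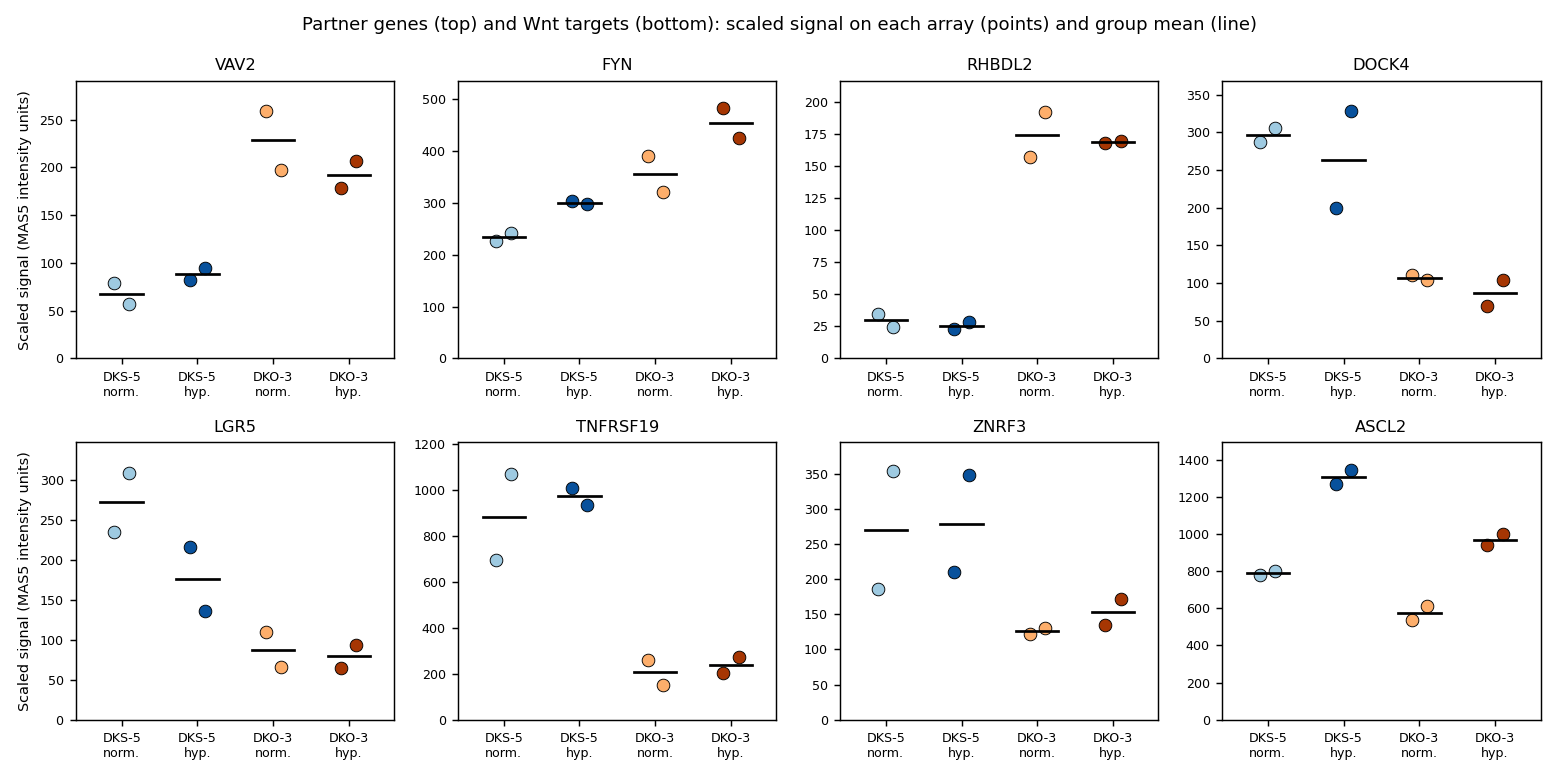
Scaled signal (vertical axes from 0, in MAS5 intensity units, a separate scale for each gene) of 4 genes of Eph and ephrin signalling (top) and 4 Wnt targets (bottom) on each array (points), with the mean of each group of 2 (line), in DKS-5 and DKO-3 at normoxia (norm.) and hypoxia (hyp.). The arrays of the lines do not overlap for VAV2, FYN, RHBDL2, DOCK4, LGR5, TNFRSF19 or ZNRF3, and for ASCL2 the 4 hypoxia arrays lie above the 4 normoxia arrays.

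Wnt/beta-catenin targets were set beside EPHB3, which is one of them. Of 15 listed, 13 were tested, and between the lines averaged 3 were higher in DKS-5 and 0 lower, beside 9.11% of all genes called. Their median was 0.21, beside -0.01 for all genes. TNFRSF19, a receptor gene of stem cells, was 3.99-fold higher (1.99 ± 0.20, adjusted p = 9.77e-06), and LGR5, the crypt stem cell receptor gene, 2.36-fold higher (1.24 ± 0.21, adjusted p = 0.00130). The 3 probe sets of TNFRSF19 ran from 0.71 to 1.99, and the 2 of LGR5 from 0.47 to 1.24, of which 1 was called. LGR5 missed the threshold with the ACTB ratio as a covariate (0.87, adjusted p = 0.126). ZNRF3, a Wnt feedback inhibitor gene, was 1.81-fold higher (0.86 ± 0.22, adjusted p = 0.0209), and it missed the threshold without DKO-3 hypoxia replicate 1, either DKO-3 normoxia array, DKS-5 hypoxia replicate 2 or DKS-5 normoxia replicate 2 (adjusted p from 0.0605 to 0.135), with no array scaling (adjusted p = 0.0773) and with no filter on dim probe sets (adjusted p = 0.0775). Within normoxia TNFRSF19 (2.02, adjusted p = 0.000659) and LGR5 (1.49, adjusted p = 0.0119) were the 2 called, and within hypoxia TNFRSF19 was the 1 called (1.97, adjusted p = 0.000689). Over all genes 2.54% were called in normoxia and 4.37% in hypoxia. LGR5 in normoxia missed the threshold without DKO-3 normoxia replicate 2 (1.19, adjusted p = 0.169) or DKS-5 normoxia replicate 2 (1.30, adjusted p = 0.167) and with no filter on dim probe sets (adjusted p = 0.0757), and TNFRSF19 in hypoxia with the ACTB ratio as a covariate (1.62, adjusted p = 0.0893). With hypoxia averaged over both lines, where 1.19% of all genes were called, 1 of the 13 rose. That gene was ASCL2, a stem cell transcription factor gene, at 0.73 ± 0.14 (adjusted p = 0.0116), and it missed the threshold without either DKO-3 hypoxia array, DKO-3 normoxia replicate 1 or either DKS-5 normoxia array (adjusted p from 0.0598 to 0.0985), with the ACTB ratio as a covariate (adjusted p = 0.153) and with the mean of its probe sets (adjusted p = 0.155). EPHB3 itself was not called in any of the comparisons.

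By the root mean square difference of log2 values over the 8 arrays, each centred on its own mean, the genes most like EPHA4 were IQCE at 0.17, CLIC5 at 0.18 and LINC02901 at 0.20, beside a standard deviation of 0.71 for EPHA4 itself. IQCE, for example, had signals from 26.0 to 34.8 on the DKS-5 arrays and from 72.5 to 99.5 on the DKO-3 arrays.

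Pearson's r between the 2 arrays of a group ran from 0.976 to 0.989 over the genes tested, which are not independent replicates. As a check of the treatment label, the hypoxia reference genes NDRG1, BHLHE40, EGLN3 and VEGFA rose in hypoxia averaged over both lines. ANGPTL4, also on that list, had normoxia signals of 1.52 to 8.36, below the bound for testing, and passed the filter through the hypoxia arrays, so it is not counted. As a check of the tissue, 9 of 10 colon epithelium markers were bright enough to be tested. None of 6 endothelial markers was, nor 5 of 7 fibroblast and muscle markers, nor 5 of 6 blood cell markers. Those of these lists that passed were ACTA2 (signals of 49.9 to 132), COL1A1 (4.52 to 27.1) and HBB (4.36 to 47.5). Of the 9 colon epithelium markers, KRT20 had signals of 6.20 to 15.5 on the DKS-5 arrays and 301 to 445 on the DKO-3 arrays. It passed the filter through the DKO-3 arrays, so it is no check of the tissue for DKS-5. VIL1 went the other way, with 54.8 to 103 on the DKS-5 arrays and 12.8 to 17.6 on the DKO-3 arrays. The latter lie near the bound for testing, so VIL1 is no check of the tissue for DKO-3. The summed signal of the 6 endothelial markers was 19.1 to 39.4 on the normoxia arrays and 38.8 to 62.1 on the hypoxia arrays, and its part in the EFNA1 values was not tested. The sums ran from 89.4 to 172 for the fibroblast and muscle markers and from 45.0 to 80.6 for the blood cell markers. As RNA was taken from whole cultures, fewer cells that express a gene and less RNA in each cell cannot be told apart.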

How the data were processed

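RNA of 8 samples was amplified with the NuGEN Ovation system and hybridised to Affymetrix arrays, per the labels' protocols. The authors deposited 1 intensity per probe set on a linear scale, which the submitters' processing notes credit to MAS5. The software's version and target are not given in the sources used here. The trimmed means (2% at each end) of the deposited intensities ran from 133 to 201, and each array was scaled to 172.1, their median, without the 62 control probe sets. Values became log2(signal + 16), which understates changes of dim genes. Precision is limited by the number of arrays.

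Of 54675 probe sets, 41091 had 1 gene symbol in the platform annotation, 1801 had several and 11721 were unnamed. Of the first, 41037 matched RefSeq (GRCh38.p14), which also gave gene order and promoters, and no symbol changed. Each gene was represented by its brightest probe set on average. The 12735 genes above the 40th percentile of probe set means entered limma 3.58.1 (R 4.3.3; 1 mean per group, all 8 arrays, eBayes with trend, 4 residual and 11.3 prior degrees of freedom, two-sided). The 7 comparisons were hypoxia within each line and averaged, the lines within each oxygen level and averaged, and the interaction. A second test covered 25838 probe sets.

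All members were named. Of the other lists, each gene past the threshold in a comparison was named, or otherwise the 2 with the smallest p, and the 3 genes most like each called member. DOCK4 stood in the reverse signalling list. The members and lists were chosen with earlier results of these data known. Alternatives changed the pseudocount, filter, scaling, probe set summary, covariates, block and arrays used. The script was tested on simulated data.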

Additional observations from a re-analysis of the deposited data

Results flagged for a closer look

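EPHA2 was singled out because hypoxia went with opposite directions in the lines. Both DKS-5 hypoxia arrays (412 and 457) lay above both DKS-5 normoxia arrays (290 and 374), and both DKO-3 hypoxia arrays (295 and 301) lay below both DKO-3 normoxia arrays (327 and 402). The hypoxia difference in DKS-5 exceeded that in DKO-3 by 0.65 ± 0.33 on the log2 scale, with a limma adjusted p = 0.9995 over 12735 genes, so the test of the difference was not past the threshold.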

How the results depend on the processing

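No called member changed sign under any setting, while 76 member values that passed the threshold in neither setting did. With the ACTB 3' to 5' ratio as a covariate, the count of members called went from 1 to 0 for the lines averaged and for the lines in hypoxia, and with the mean of all probe sets it went from 1 to 0 in hypoxia. Leaving out single arrays gave 0 to 1 members for the lines in hypoxia and 0 to 1 for hypoxia averaged. The replicate numbers were not taken to pair the samples, since each group has 2. The correlations of same-numbered deviations ran from -0.09 to 0.33. The highest were between the lines at the same oxygen level, 0.33 in hypoxia and 0.21 in normoxia. With the replicate block, 1 member, EFNA1, was called with hypoxia averaged (0.85, adjusted p = 0.0169) in place of 0, and no other member's call changed.

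Counts over all genes moved more. For hypoxia averaged, 152 genes became 325 with the block, 63 with the covariate and 70 with no filter on dim probe sets. For the lines averaged, 1160 became 443 with the covariate and 1774 with no array scaling. For the lines in hypoxia 557 became 128, 2383, 217 with no filter and 357 with only the arrays compared. For the lines in normoxia 324 became 144 with no filter. In DKO-3 hypoxia 44 became 92 with the block, 14 with the covariate, 84 with no array scaling, 7 with no filter and 68 with only the arrays compared, and in DKS-5 64 became 32 with no array scaling, 35 with no filter and 36 with only the arrays compared. Without array scaling the median of all genes moved to -0.42 for the lines in hypoxia, -0.21 for the lines averaged, -0.19 for hypoxia in DKS-5, 0.20 in DKO-3 and -0.41 for the interaction. The calls then split as 63 higher and 2320 lower in DKS-5 in hypoxia, in place of 177 and 380, and as 137 and 1637 averaged, in place of 379 and 781. EPHA4 lay below that median, at -1.96 in hypoxia and -1.39 averaged. The cause was not tested. With single arrays left out, the counts ran from 60 to 770 for hypoxia averaged, 29 to 297 in DKS-5, 1 to 69 in DKO-3, 119 to 452 for the lines in normoxia, 133 to 784 in hypoxia and 625 to 1536 averaged. Signals near the lower bound, as those of EFNA3 and EFNB1, limit what these arrays show.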

Other observations

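The genes next to EPHA4 and EFNA1 were also measured. Of the 6 tested genes nearest EPHA4 in RefSeq order, OBSL1, STK11IP, SLC4A3, SGPP2, FARSB and SCG2, 0 were called between the lines averaged by limma, with differences from -0.53 to 0.23. The lowest was SGPP2, a sphingosine phosphatase gene (-0.53 ± 0.17, adjusted p = 0.0609). Of the 6 nearest EFNA1, 0 were called with hypoxia averaged over both lines. The differences were -0.01 for ZBTB7B, 0.55 for DCST1-AS1, 0.63 for EFNA4, 0.41 for SLC50A1, 0.44 for DPM3 and 0.40 for KRTCAP2. The median of all genes tested was 0.03.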
